A study of Sus scrofa with 8 samples.

Results

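Interleukin 15 (IL15) and the receptors built around the common gamma chain were followed in the endometrium, the inner lining of the uterus, of pregnant and non-pregnant gilts (young female pigs) on day 14. The 7 genes were chosen by name as pig symbols, each tied to its Entrez identifier in the count tables, and every one has 1 counted transcript. They are 7 of the 21064 genes in the tables. They comprise the ligands IL15 and IL7, the private receptor chains IL15RA, IL2RA and IL7R, the shared beta chain IL2RB and the common gamma chain IL2RG.

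The pregnant group was 4 German Landrace gilts inseminated with Pietrain semen, and the control group was 4 gilts given the supernatant of centrifuged semen from that boar. All 8 animals were prepuberal and had their ovulation induced with PMSG (750 IU) followed by hCG (500 IU), so both groups carry that hormone treatment. Endometrium without the muscle layer came from the reddened zones of embryo attachment in pregnant gilts and from matching places in controls, so pregnancy and the choice of zone cannot be told apart. Each library is RNA pooled from 3 places in 1 uterine horn of 1 animal.

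Interleukin 15 is bound by IL15RA on the surface of the cell that makes it and is handed from there to neighbouring cells that carry IL2RB and IL2RG. IL2RG also serves the receptors for interleukins 2, 4, 7, 9 and 21, and signals through the kinase JAK3, with JAK1 on the partner chain and STAT5 proteins below them. In the human and mouse uterus interleukin 15 is known for the growth and survival of natural killer cells, and interleukin 7 sustains T cells. In the pig the conceptus (the embryo with its membranes) releases interferon gamma and interferon delta at this stage, and interferons are known inducers of IL15 and IL15RA in other tissues.

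Total counts per library ran from 28035007 to 41016150, and 18783 transcripts of 15913 genes could be tested, among them the transcripts of all 7 genes. Values are CPM (read counts scaled to a common library size), and each log2 change, given ± SE, sets the 4 pregnant animals over the 4 controls. On the first principal component control replicate 4 lay apart from the other controls, at −27.8 against −46.1 to −42.3, with the pregnant libraries at 35.5 to 42.2. The epithelial marker EPCAM stood at 90.0 to 136 CPM in pregnant and 103 to 206 CPM in control libraries, and the muscle marker DES at 16.9 to 29.0 and 27.3 to 38.6 CPM, and neither difference passed. Other markers of these tissues did not all move alike. The epithelial keratins KRT8, KRT18 and KRT19 fell in pregnant animals by 2.10, 1.58 and 1.83 on the log2 scale. The smooth muscle genes ACTG2, CNN1 and ACTA2 fell by 1.59, 1.37 and 0.82. The epithelial gene CLDN4 rose by 1.06 ± 0.20 (edgeR adjusted p = 0.00342). The epithelial gene FOXA2 did not pass (log2 difference −0.36 ± 0.31, edgeR adjusted p = 0.454). The part of these markers in the results was not tested. The EPCAM model shares exonic bases with a gene on the opposite strand, whose reads cannot be told apart from its own.

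Transcripts of 5 of the 7 genes rose in pregnant endometrium, and 0 fell. IL15RA rose 11.0-fold, IL15 6.45-fold, IL7R 3.75-fold, IL2RG 3.11-fold and IL2RB 1.86-fold. IL7 and IL2RA did not pass the threshold, an adjusted p of 0.05 over all transcripts. Among all transcripts tested, 11.2% passed as higher in pregnant animals, 10.1% as lower and 21.3% in either direction. For these 5 genes the 4 pregnant values lay above the 4 control values, as did those of 13.2% of all transcripts tested, and 26.1% had groups apart in either direction. The median log2 change of the 7 genes was 1.64, beside −0.02 over all genes tested. In bulk tissue, more cells of a type and more RNA per cell cannot be told apart.

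**Figure D1:**
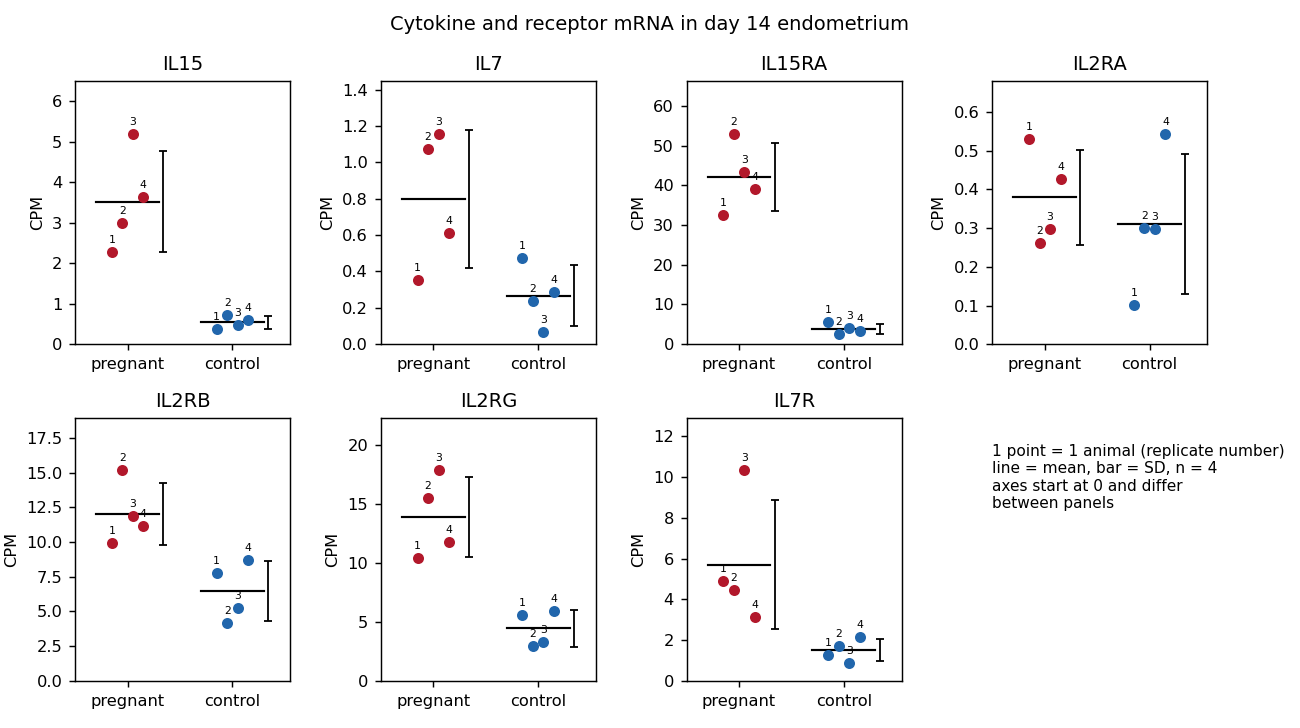
CPM of the 2 ligands and 5 receptor chains in each library (vertical axes in CPM, starting at 0 and differing between panels), pregnant animals in red and control animals in blue, with replicate numbers, the mean as a line and the SD as a bar. The 4 pregnant values lie above the 4 control values for IL15, IL15RA, IL2RB, IL2RG and IL7R and overlap them for IL7 and IL2RA.

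The ligand IL15 (Entrez gene 397683, Sscrofa10.2 chromosome 8, 90964029 to 90974053, minus strand) had 2.26, 2.98, 5.19 and 3.63 CPM in pregnant replicates 1 to 4, against 0.373, 0.719, 0.465 and 0.602 CPM in control replicates 1 to 4. Every pregnant animal was above every control animal, and pregnant replicate 3 was the highest. The values rest on 64 to 157 reads per pregnant library and 11 to 24 reads per control library. The log2 change was 2.69 ± 0.34 (95% interval 1.93 to 3.44, edgeR adjusted p = 3.48e-04), and 239 of the 15913 genes tested had a larger one. The counted IL15 model holds 489 bp in 6 exons, and reads from parts of the messenger RNA outside it are not in these counts.

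The ligand IL7 (Entrez gene 397253, chromosome 4, 62889370 to 62948222, plus strand), a lymphocyte survival factor, was scarce. It had 10, 41, 35 and 20 reads in pregnant replicates 1 to 4, which is 0.354, 1.07, 1.16 and 0.610 CPM, against 14, 8, 2 and 10 reads in control replicates 1 to 4, which is 0.475, 0.240, 0.0664 and 0.286 CPM. The groups overlapped, because control replicate 1 was above pregnant replicate 1. The log2 difference was 1.58 ± 0.55 (95% interval 0.35 to 2.80) and did not pass (edgeR adjusted p = 0.0675). It passed without pregnant replicate 1 (0.0455), without control replicate 1 (0.0452) and with DESeq2 (0.0441), in a range over the alternatives of 0.0441 to 0.168.

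The private chain IL15RA (Entrez gene 733692, chromosome 10, 71094394 to 71125898, minus strand), which holds interleukin 15 at the cell surface, had 32.6, 53.0, 43.3 and 39.0 CPM in pregnant replicates 1 to 4, against 5.56, 2.58, 4.02 and 3.21 CPM in control replicates 1 to 4. The lowest pregnant animal was far above the highest control animal. The mean was 42.0 ± 8.56 CPM in pregnant and 3.84 ± 1.29 CPM in control endometrium (SD, n = 4 each). The log2 change was 3.45 ± 0.25 (95% interval 2.89 to 4.01, edgeR adjusted p = 1.57e-05), with 115 of 15913 genes above it.

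IL2RA (Entrez gene 396814, chromosome 10, 71153915 to 71162728, minus strand), the alpha chain of the high-affinity interleukin 2 receptor, stayed near the limit of detection. It had 15, 10, 9 and 14 reads in pregnant replicates 1 to 4 and 3, 10, 9 and 19 reads in control replicates 1 to 4. The corresponding levels were 0.531, 0.261, 0.298 and 0.427 CPM in pregnant and 0.102, 0.299, 0.299 and 0.544 CPM in control animals. The ranges overlapped, with the highest and the lowest of the 8 values both in controls. The log2 difference was 0.26 ± 0.50 (edgeR adjusted p = 0.760), and its 95% interval of −0.85 to 1.37 leaves room for a change of up to 2.58-fold upward. The difference was −0.000894 without control replicate 1.

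IL7R (Entrez gene 100271930, chromosome 16, 22282676 to 22312680, plus strand), the alpha chain of the interleukin 7 receptor, had 4.88, 4.44, 10.3 and 3.14 CPM in pregnant replicates 1 to 4, against 1.29, 1.71, 0.896 and 2.15 CPM in control replicates 1 to 4. Pregnant replicate 3 stood well above the other pregnant animals, and all of these were above the controls. The log2 change was 1.91 ± 0.40 (95% interval 1.02 to 2.79, edgeR adjusted p = 0.00657) and was 1.46 without pregnant replicate 3.

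The common gamma chain IL2RG (Entrez gene 397156, chromosome X, 64674047 to 64677371, minus strand) had 10.4, 15.5, 17.9 and 11.8 CPM in pregnant replicates 1 to 4, against 5.63, 2.96, 3.29 and 5.96 CPM in control replicates 1 to 4. The groups were apart. The log2 change was 1.64 ± 0.27 (95% interval 1.04 to 2.24, edgeR adjusted p = 0.00178).

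The beta chain IL2RB (Entrez gene 100621776, chromosome 5, 8231063 to 8246164, plus strand), which carries the interleukin 2 and interleukin 15 signal into the cell, moved least of the chains that passed. It had 9.91, 15.2, 11.9 and 11.1 CPM in pregnant replicates 1 to 4, against 7.73, 4.13, 5.28 and 8.74 CPM in control replicates 1 to 4. The groups were apart by a small gap, between pregnant replicate 1 and control replicate 4. The log2 change was 0.89 ± 0.25 (95% interval 0.35 to 1.44, edgeR adjusted p = 0.0257). The call was lost without pregnant replicate 2 (0.0852) or 3 (0.0544) and without control replicate 2 (0.0514) or 3 (0.0734), in a range over the alternatives of 0.00561 to 0.0852.

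Without control replicate 4, the library that lay apart, the log2 changes were 2.74 for IL15, 3.38 for IL15RA, 1.07 for IL2RB, 1.81 for IL2RG and 2.13 for IL7R, and each passed. The log2 differences of IL7 and IL2RA were then 1.61 and 0.67 and did not pass. Among the pregnant animals replicate 1 had the lowest IL15, IL15RA, IL2RB and IL2RG and the highest IL2RA. The same animal had the lowest level of PTPRC (CD45, a protein of all leukocytes), 35.7 CPM against 51.8 to 61.5 CPM in the other pregnant animals.

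Levels of different genes were compared per length, with the summed length of the counted exons. The IL15 model is the shortest of the 7, and how much untranslated sequence each model holds was not tested. The order and the size of ratios between genes are therefore uncertain, above all for IL15. In pregnant endometrium IL15RA came first at 25.1 ± 5.12, followed by IL2RG at 12.6 ± 3.09, IL2RB at 7.21 ± 1.34, IL15 at 7.19 ± 2.56, IL7R at 2.85 ± 1.59, IL7 at 0.975 ± 0.466 and IL2RA at 0.320 ± 0.104 CPM per kilobase (mean ± SD, n = 4). The ranges of IL2RB and IL15, of IL15 and IL7R, and of IL7 and IL2RA overlapped, so those neighbours in the order were not separated. In control endometrium the order was IL2RG at 4.03 ± 1.40, IL2RB at 3.88 ± 1.28, IL15RA at 2.30 ± 0.771, IL15 at 1.10 ± 0.311, IL7R at 0.755 ± 0.270, IL7 at 0.326 ± 0.205 and IL2RA at 0.262 ± 0.153 CPM per kilobase. There only IL15RA and IL15 were neighbours without overlap. IL15RA was thus below both shared chains on average in controls and above them in every pregnant library.

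The balance between chains was read as ratios of CPM per kilobase within each library, as a description without a test. IL15RA over IL2RG was 2.07, 2.26, 1.60 and 2.19 in pregnant replicates 1 to 4, against 0.654, 0.575, 0.809 and 0.356 in control replicates 1 to 4. IL2RB over IL2RG was 0.632, 0.647, 0.441 and 0.628 in pregnant animals, against 0.912, 0.925, 1.07 and 0.973 in controls. For both ratios the groups did not overlap. Per counted length the 2 shared chains were near parity in controls, and the gamma chain was ahead in pregnant animals. How much untranslated sequence their models hold was not tested, so the parity itself is uncertain. The ratio of IL15RA to its ligand IL15 ranged from 2.44 to 5.20 in pregnant and from 1.05 to 4.36 in control animals and overlapped.

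**Figure D2:**
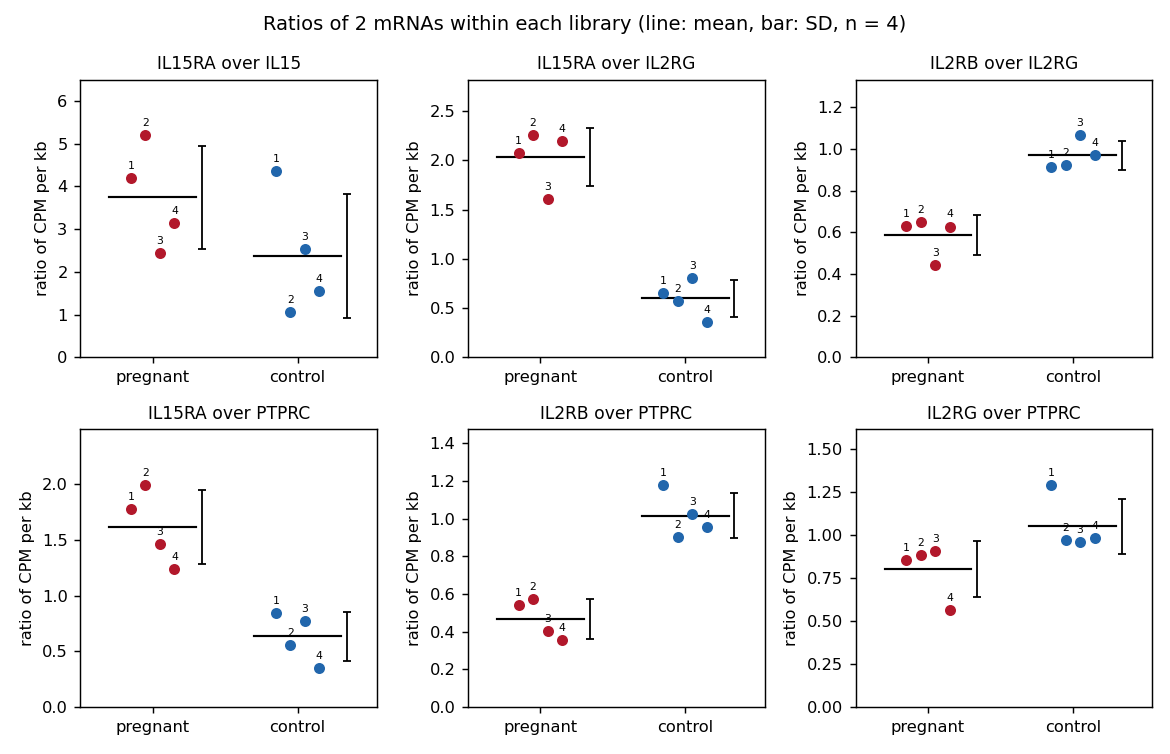
Ratios of 2 messenger RNAs within each library (vertical axes are ratios of CPM per kilobase, from 0), pregnant animals in red and control animals in blue, with the mean as a line and the SD as a bar. IL15RA over IL2RG and over PTPRC lie higher in pregnant animals, IL2RB and IL2RG over PTPRC lie lower, and IL15RA over IL15 overlaps.

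PTPRC itself rose, with levels between 35.7 and 61.5 CPM in pregnant and between 8.95 and 17.9 CPM in control animals (log2 change 2.05 ± 0.24, edgeR adjusted p = 2.19e-04). Relative to PTPRC, IL15RA was higher, at 1.62 ± 0.335 in pregnant and 0.633 ± 0.224 in control animals (ratio of CPM per kilobase, SD, n = 4 each), without overlap. IL2RB relative to PTPRC was 0.468 ± 0.106 in pregnant and 1.01 ± 0.120 in control animals, also without overlap. IL2RG relative to PTPRC was 0.804 ± 0.162 in pregnant and 1.05 ± 0.161 in control animals, with 0.911 as the highest pregnant and 0.959 as the lowest control value. IL2RB relative to NKG7, a natural killer and cytotoxic cell marker, had means of 0.459 in pregnant and 0.802 in control animals, but the groups overlapped. Relative to the T cell marker CD3E the means were 0.57 and 1.07 for IL2RB and 0.988 and 1.09 for IL2RG, also with overlap. The ratios of IL15, IL7 and IL7R to PTPRC overlapped between groups, with means of 0.450, 0.0603 and 0.184 in pregnant and 0.315, 0.0860 and 0.204 in control animals. For IL2RA this ratio ran from 0.0139 to 0.0409 in pregnant and from 0.0218 to 0.0920 in control animals.

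Markers of lymphocytes rose in the same animals, and their part in the receptor changes was not tested. Of 14 listed markers of natural killer and cytotoxic cells 13 were matched and 10 tested, of which 9 rose and 0 fell, and the summed level of the list was 105 to 175 CPM in pregnant and 28.4 to 63.0 CPM in control animals. GNLY and GZMA of cytotoxic granules rose by 2.46 ± 0.28 and 3.01 ± 0.35, the natural killer receptor CD244 by 3.23 ± 0.32 and NKG7 by 1.58 ± 0.36. The receptor gene KLRK1 did not pass (log2 difference 1.01 ± 0.38, edgeR adjusted p = 0.0863). The receptor gene KLRD1 had 2 reads in pregnant replicate 1, 8 in pregnant replicate 4 and 0 in every other library, and was not tested. KLRB1 had 35 reads in pregnant and 14 in control animals and NCR3 had 51 and 24, and they were not tested either. Of 12 T cell markers 10 were matched and 9 tested, and these 9 rose, with a summed level of 96.3 to 167 CPM in pregnant and 27.2 to 60.6 CPM in control animals. CD3E of the T cell receptor complex rose by 1.60 ± 0.31 and the adhesion molecule CD2 by 3.26 ± 0.42. GZMA is listed under 2 Entrez genes, so the share of reads of each is uncertain.

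Markers of macrophages and dendritic cells, which are known to present interleukin 15, were also higher. Of 12 macrophage and dendritic cell markers 10 were matched and 9 tested, with 7 higher and 1, the mannose receptor MRC1, lower, and the summed level was 735 to 959 CPM in pregnant and 273 to 460 CPM in control animals. AIF1 rose by 3.20 ± 0.26, the dendritic cell receptor FLT3 by 2.46 ± 0.31 and the complement gene C1QC by 1.59 ± 0.23. The call of MRC1 (adjusted p = 0.0295) was lost without pregnant replicate 1, 3 or 4 and without control replicate 2 or 4. The count of higher markers moved too, from 5 without pregnant replicate 2 or 3 to 8 without pregnant replicate 1 or with DESeq2. The part of these cells in the rise of IL15 and IL15RA was not tested. With the highest transcript standing for each gene, 11.6% of the 15913 genes tested were called higher, 10.1% lower and 21.6% in either direction, the background for the counts of listed genes.

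The regulatory T cell markers bear on IL2RA, which these cells carry at high density. Of 5 markers 3 were tested and 2 rose. FOXP3, their defining transcription factor, was at 1.75 to 2.05 CPM in pregnant and 1.23 to 1.73 CPM in control animals (log2 difference 0.43 ± 0.24, edgeR adjusted p = 0.234). IL10 rose by 1.50 ± 0.32. The inhibitory receptor CTLA4 had 160 reads in pregnant animals, 88 of them in replicate 2, and 1 in controls, in control replicate 4. It rose by 6.65 ± 0.84 (95% interval 4.79 to 8.52, edgeR adjusted p = 3.47e-04), a size that rests on 1 control read. The ratio of the pooled reads was 158, with an exact 95% binomial counting interval of 28.0 to 6280. That interval leaves out the spread between animals.

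Of 6 B cell markers 4 were tested and 1, the immunoglobulin joining chain gene JCHAIN, rose (edgeR adjusted p = 0.0483), a call lost without pregnant replicate 2 or any 1 of the controls, with no filter (0.0805) and with limma voom (0.0739), in a range over the alternatives of 0.0192 to 0.136. Of 7 innate lymphoid and mast cell markers 1, GATA3, rose and 6 did not pass. Among those 6, IL1RL1 differed by −1.59 ± 0.57 and the mast cell gene MS4A2 by 1.38 ± 0.51 on the log2 scale. Without control replicate 4 both passed, in opposite directions (edgeR adjusted p = 0.0226 and 0.0172). MS4A2 also passed with DESeq2 (0.0451), and 1 marker of the list was lower without pregnant replicate 3. Of 6 stromal markers 2 rose and 1 fell, counts that were 1 and 0 without pregnant replicate 2 or control replicate 3. Of 6 epithelial markers 1 rose and 3 fell, and of 3 endothelial markers 1 rose. Of 4 smooth muscle markers 3 fell, with a summed level of 245 to 386 CPM in pregnant and 445 to 707 CPM in control animals. Of the conceptus list 1 gene, GATA2, could be tested and fell. The trophoblast gene CDX2 had 4 reads in pregnant replicate 1 and 0 in every other library. ELF5 of the same list had 40 reads in pregnant and 15 in control animals, with overlap, and was not tested. Interferon gamma (IFNG), made by lymphocytes and by the pig conceptus, had 26 reads in pregnant and 4 in control animals and was not tested.

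The other cytokines that use the common gamma chain were at the edge of detection. IL2 had 2 reads in pregnant and 2 in control animals, IL4 had 2 and 0, IL21 had 4 and 0, and IL9 had 0 and 0. The related cytokine TSLP, which signals through IL7R, had 5 reads in pregnant and 13 in control animals. A count of 0 over a group allows up to 3 reads, or about 0.0232 CPM in pregnant and 0.0235 CPM in control libraries, so a group without reads does not show that the gene was absent. IL15 and IL7 were thus the ligands of the family with more than 20 reads in a group.

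Of the other private chains, IL4R of the interleukin 4 receptor was at 41.6, 63.5, 43.6 and 50.3 CPM in pregnant replicates 1 to 4, against 35.2, 26.2, 25.9 and 36.8 CPM in control replicates 1 to 4. It rose by 0.68 ± 0.18 (edgeR adjusted p = 0.0188), and lost the call without pregnant replicate 2 or control replicate 2 or 3 (alternatives ranged over 0.00507 to 0.0621). IL21R, the interleukin 21 receptor, was at 0.915 to 1.69 CPM in pregnant and 0.299 to 0.848 CPM in control animals. It rose by 1.29 ± 0.39 (edgeR adjusted p = 0.0369), a call lost without pregnant replicate 1, 2 or 3 or control replicate 2, 3 or 4 (range over the alternatives 0.0134 to 0.101). IL9R was at 2.84 to 3.18 CPM in pregnant and 2.34 to 3.12 CPM in control animals, and the difference of 0.17 ± 0.20 did not pass (edgeR adjusted p = 0.587, 95% interval −0.27 to 0.62). Relative to IL2RG per length, IL4R was at 1.69 ± 0.385 in pregnant and 3.32 ± 0.589 in control animals and the groups did not overlap.

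**Figure D3:**
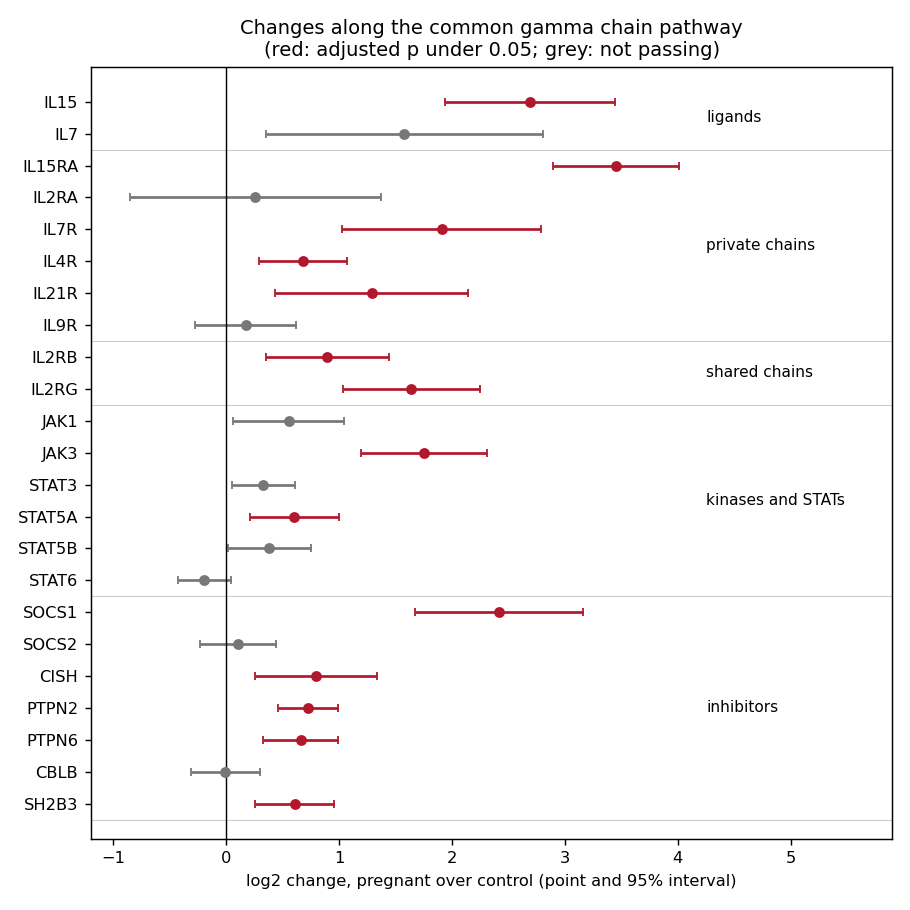
Log2 change (pregnant over control, horizontal axis, points with 95% intervals) of ligands, private chains, shared chains, kinases with STAT factors and inhibitors, in red where edgeR's adjusted p was under 0.05 and in grey otherwise. IL15RA at 3.45 and IL15 at 2.69 lie furthest right, and the intervals of IL2RA, IL9R, STAT6, SOCS2 and CBLB span 0.

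Below the receptor, JAK3, the kinase bound to the common gamma chain, had 25.0, 40.2, 35.2 and 31.9 CPM in pregnant replicates 1 to 4, against 9.77, 6.98, 7.40 and 15.0 CPM in control replicates 1 to 4. All pregnant animals were above all controls, and the log2 change was 1.75 ± 0.25 (edgeR adjusted p = 7.54e-04). JAK1, the kinase of the partner chains, was at 38.8 ± 9.61 CPM in pregnant and 26.4 ± 6.73 CPM in control animals (SD, n = 4 each), with overlap, and its difference of 0.55 ± 0.22 did not pass (edgeR adjusted p = 0.103). The ratio of JAK3 to JAK1 per length was 0.183 to 0.321 in pregnant and 0.0654 to 0.164 in control animals, without overlap. The ratio of JAK3 to PTPRC per length was 0.463 to 0.694 in pregnant and 0.656 to 0.752 in control animals and overlapped.

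STAT5A, the signal transducer of these receptors, was at 79.1 to 85.8 CPM in pregnant and 37.7 to 75.2 CPM in control animals and rose by 0.60 ± 0.18 (edgeR adjusted p = 0.0362). Its call was lost when any library other than control replicate 4 was left out (range over the alternatives 0.00307 to 0.0763). Its close relative STAT5B had a difference of 0.38 ± 0.17 that did not pass (edgeR adjusted p = 0.135) and that passed once control replicate 4 was left out (0.00672, with the alternatives at 0.00672 to 0.295). STAT5A and STAT5B are similar in sequence, so the division of reads between them is uncertain. Of the 14 listed signalling genes, which were all tested, 4 rose (JAK3, STAT5A, SYK and PIK3R1), 1 fell and 9 did not pass, with a median log2 change of 0.46 beside −0.02 over all genes tested. The kinase SYK rose by 1.05 ± 0.28 and the phosphoinositide kinase subunit PIK3R1 by 0.79 ± 0.22. The calls of SYK and PIK3R1 were lost without pregnant replicate 3, that of SYK also without pregnant or control replicate 2, and that of PIK3R1 also without pregnant replicate 4 or control replicate 3 (adjusted p up to 0.0718 and 0.0716). Without pregnant replicate 3 the list held 1 gene that rose, and 2 without pregnant replicate 2 or 4 or control replicate 2 or 3. The gene that fell was the kinase AKT1, at 43.9 to 46.7 CPM in pregnant and 64.3 to 72.3 CPM in control animals (log2 change −0.60 ± 0.10, edgeR adjusted p = 0.00170).

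Inhibitors of the pathway rose too. Of 8 listed genes 7 were matched and tested, of which 5 rose and 2 did not pass (median log2 change 0.66). SOCS1, which blocks JAK kinases, had 127, 126, 133 and 84.1 CPM in pregnant replicates 1 to 4, against 39.8, 16.6, 19.7 and 12.3 CPM in control replicates 1 to 4. It rose by 2.41 ± 0.34 (edgeR adjusted p = 7.27e-04), the largest change of the list. The phosphatase genes PTPN2 and PTPN6 rose by 0.72 ± 0.12 and 0.66 ± 0.15, the adaptor gene SH2B3 by 0.61 ± 0.16 and the STAT5 target CISH by 0.79 ± 0.24. The calls of SH2B3 and CISH were lost without pregnant replicate 2 or control replicate 3, that of SH2B3 also without pregnant replicate 4, and that of CISH also without pregnant replicate 3 or control replicate 2 or 4 (adjusted p up to 0.0684 and 0.114). The list held 3 genes that rose without pregnant replicate 2 and 3 without control replicate 3.

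Of 12 genes that interleukin 2, 7 or 15 is known to induce in human or mouse lymphocytes, 11 were tested, 6 rose, 0 fell and 5 did not pass (median log2 change 0.59). PIM1, a survival kinase induced through STAT5, was at 21.8 to 31.5 CPM in pregnant and 2.88 to 9.08 CPM in control animals and rose by 2.36 ± 0.32 (edgeR adjusted p = 5.05e-04). The transcription factor genes TBX21 and EOMES of cytotoxic lymphocytes rose by 1.70 ± 0.33 and 1.44 ± 0.34, the granule genes GZMB and PRF1 by 1.84 ± 0.38 and 1.49 ± 0.33, and the survival gene MCL1 by 0.59 ± 0.13. EOMES is listed under 2 Entrez genes with equal counts, and 1 of them is given. The survival gene BCL2, a textbook target of interleukins 7 and 15, was at 3.49 ± 0.593 CPM in pregnant and 2.45 ± 0.545 CPM in control animals (SD, n = 4 each) and did not pass (log2 difference 0.51 ± 0.24, edgeR adjusted p = 0.162). BCL2L1, MYC and OSM did not pass either and had log2 differences of −0.28 ± 0.12, −0.26 ± 0.19 and −0.20 ± 0.40. For CCND2, which also did not pass, it was 0.28 ± 0.22. All pregnant values of BCL2L1 lay below all control values, at 22.9 to 27.0 and 27.1 to 30.9 CPM (edgeR adjusted p = 0.117). Lymphocyte genes in this list are also markers of the cells that rose, and their part in these counts was not tested.

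Above IL15, genes of the interferon and NF-kB routes that drive its transcription in other tissues were higher. Of 8 listed genes 6 were matched and tested, of which 5 rose and 1, RELA, did not pass (median log2 change 0.56). IRF1, the interferon-induced factor that acts on the IL15 promoter in human and mouse cells, had 318, 505, 538 and 505 CPM in pregnant replicates 1 to 4, against 50.0, 39.4, 46.7 and 55.2 CPM in control replicates 1 to 4. It rose by 3.29 ± 0.19 (edgeR adjusted p = 4.25e-06). The lowest IRF1 among pregnant animals was in replicate 1, which also had the lowest IL15, IL15RA, IL2RB, IL2RG and PTPRC. The control with the lowest IRF1, replicate 2, had the highest IL15 of its group. The part of IRF1 in the level of IL15 was not tested. STAT2 rose by 1.99 ± 0.21, the receptor chain IFNGR1 by 0.58 ± 0.13, IRF9 by 0.54 ± 0.13 and the NF-kB subunit NFKB1 by 0.51 ± 0.14. The call of NFKB1 was lost without pregnant replicate 1 or 3 or control replicate 2 or 4 (adjusted p up to 0.0605).

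The genes whose profiles over the 8 libraries lay closest to those of the 7 genes were found among 10068 named genes. The measure was the mean absolute difference of log2 CPM, each profile centred on its own mean. Genes with a similar difference between the groups come out close by this measure. The closest genes lie below the median by the way they were picked, so the medians give the scale only. The closest to IL15 were ERAP2, which trims peptides for class I molecules, FYB, an adaptor of leukocytes, and FUNDC1 of the mitochondrial membrane, at 0.25, 0.26 and 0.27 log2 units, where the median over the 10068 genes was 1.28. The closest to IL15RA were the class II genes SLA-DOA and SLA-DMB and the interferon-induced ubiquitin-like gene UBD, at 0.22, 0.23 and 0.22 log2 units beside a median of 1.74. The closest to IL2RG were NRROS of macrophages, the leukocyte integrin chain ITGB2 and the adaptor TYROBP, at 0.03, 0.09 and 0.11 log2 units beside a median of 0.85. For IL2RB they were TMEM268, SRPX2 and the T cell adaptor SH2D2A at 0.12, 0.12 and 0.13, and for IL7R ZDHHC13, SLA-2 and CNP at 0.23, 0.26 and 0.27 log2 units. For the scarce IL7 they were CD4, LIPG and CST7 at 0.27 to 0.32, and for IL2RA LDB2, PAPOLG and TC2N at 0.19 to 0.21 log2 units. SLA genes have close relatives in sequence, so the reads of a single one are uncertain.

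The genomic neighbourhoods were examined after the values of the 7 genes had been seen. IL15RA and IL2RA lie on the same strand of chromosome 10 with 28.0 kb between them, and the one rose 11.0-fold while the other did not pass. Within 250 kb of IL15RA, 7 other genes were annotated and tested, and 1 of them, the glycolysis regulator PFKFB3, rose (log2 change 1.91 ± 0.22, edgeR adjusted p = 2.19e-04). The nearest tested gene, which lies between PFKFB3 and IL15RA and has no symbol, was at 43.8 CPM in pregnant and 43.6 CPM in control animals on average. Around IL2RB 10 neighbours were tested, of which 4 rose and 1 fell. Those that rose were the leukocyte genes CYTH4 (1.60 ± 0.24), RAC2 (1.83 ± 0.24), CSF2RB (1.53 ± 0.27) and NCF4 (1.82 ± 0.19), each by more than IL2RB, and C1QTNF6 fell by 1.39 on the log2 scale. Of the 10 tested neighbours of IL2RG, the 6 of IL7R, the 2 of IL7 and the 1 of IL15, edgeR passed 0. Over all 15913 genes tested, 11.6% were called higher, 10.1% lower and 21.6% in either direction.

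**Figure D4:**
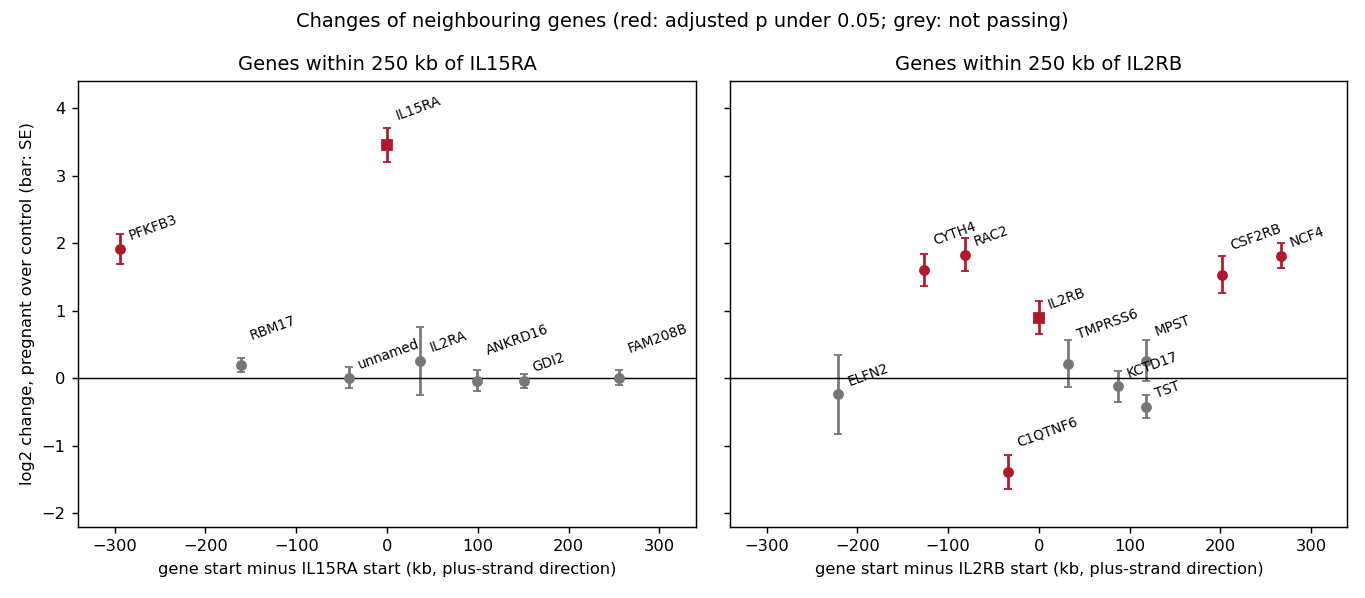
Log2 change (pregnant over control, vertical axis, bars are SE) of the tested genes within 250 kb of IL15RA and of IL2RB, by the distance of their starts from that gene's start in kilobases, in red where edgeR's adjusted p was under 0.05. IL15RA at 3.45 stands above its near neighbours, while 4 neighbours of IL2RB lie higher than IL2RB at 0.89.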

How the data were processed

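RNA-seq of poly(A) RNA was deposited for 8 animals, 4 pregnant and 4 control, as raw read counts per transcript; the authors' deposited counts are not normalized. Cufflinks 1.3, TopHat 1.4, CASAVA 1.6 and DESeq, with Sscrofa10.2 as the build, are listed by the submitters' processing notes. The sources used here do not give the counting program. The kit does not mark the strand, per the labels' protocols. Exon positions are those of the deposited annotation, counted from 1. Symbols came from a RefSeq table of Sscrofa11.1, used for names only. No sequences are given.

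The deposited counts entered edgeR 4.0.16 (R 4.3.3). Transcripts were kept by filterByExpr at 10 counts, scaled by TMM and compared between groups by the robust quasi-likelihood test, with Benjamini-Hochberg adjustment over 18783 transcripts. CPM use the TMM-scaled library size. The SE is that implied by the F statistic. Alternatives were DESeq2's size factors, no filter, DESeq2 1.42.0, limma 3.58.1 voom, 1 transcript per gene, a replicate block and leaving out each library. The fit was also run on simulated data, with the same spread between animals for every transcript. No changed transcript there was as scarce as IL7 or IL2RA, so that run does not bear on such genes.

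The 7 genes and the lists of 137 pathway and marker genes, of which 121 matched, were chosen with earlier results of these data known. Named were the 7 genes, the other common gamma chain genes, up to 5 genes of each other pathway list and 3 of each marker list by smallest p, some of them left out of the text, and a few fixed genes. EOMES, MRC1, BCL2, BCL2L1, MYC, OSM, CCND2, KLRD1, KLRK1, KLRB1, NCR3, IFNG, CDX2, ELF5, CLDN4, FOXA2, RELA and the neighbouring genes fall outside this rule. They were picked with their values in view.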

Additional observations from a re-analysis of the deposited data

Results flagged for a closer look

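Among 140 groups of 4 values checked for the genes named by rule, 7 held an animal whose gap to its nearest neighbour exceeded Dixon's 95% limit, where chance gives about 1 in 20. None of these was among the 7 genes of the interleukin 15 axis. In pregnant animals IRF1 was low in replicate 1 (318 CPM, others 505 to 538), and SOCS1 was low in replicate 4 (84.1 CPM, others 126 to 133). In controls CD3E was high in replicate 1 (9.56 CPM, others 3.47 to 3.75), and MCL1 was low there (121 CPM, others 146 to 150). GNLY was low in control replicate 2 (5.72 CPM, others up to 10.8). CD3D and the mast cell gene MS4A2 were high in control replicate 4 (2.66 CPM, others 1.43 to 1.53, and 0.974 CPM, others 0.270 to 0.365).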

How the results depend on the processing

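IL15, IL15RA, IL2RG and IL7R passed under each of the 14 alternatives, with log2 changes of 2.44 to 2.86, 3.30 to 3.71, 1.49 to 1.81 and 1.46 to 2.13. The number of the 7 genes that passed was 4 to 6 when single libraries were left out. The replicate numbers of the labels did not pair the animals (correlations of same-numbered deviations from −0.09 to 0.19). With the replicate number as a block 4 of the 7 genes passed, as IL2RB then had an adjusted p of 0.0539, and 3883 transcripts passed. Under this block 1 gene of the other common gamma chain list passed, since IL21R did not, CISH (0.0716) and JCHAIN (0.136) lost their calls, and JAK1 passed (0.0197). The block left 4 higher inhibitors, 5 higher signalling genes and 0 higher B cell markers. Leaving out single libraries gave 2864 to 4127 transcripts passing, 1599 to 2110 higher and 1265 to 2017 lower. It gave 3 to 5 higher inhibitors, 0 to 2 higher genes of the other common gamma chain list and 1 to 5 higher signalling genes. The log2 difference turned round for IL2RA (−0.000894 to 0.67 over single libraries left out), LDB2 (−0.0147 to 0.40) and the endothelial gene PECAM1 (−0.14 to 0.31, 0.0472 with the block and 0.0462 with limma voom). Among 91 named genes tested, 68 kept sign and call throughout. With 1 transcript per gene IL2RA fell below the filter. The few reads of IL2RA and IL7 limit what can be seen of them. Why results moved was not tested.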
